A study of Mus musculus with 12 samples.

Results

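The data described here are the reads of 3 microRNA precursors, mmu-mir-183, mmu-mir-96 and mmu-mir-182 (mir-183, mir-96 and mir-182 below), which lie together on mouse chromosome 6. All reads aligned to a precursor of one of these names were taken, each read sequence once with its full read number, and were assigned to the 5p arm when they lay in the first part of the precursor and to the 3p arm when they lay beyond its midpoint. These are 3 of 1532 precursors with reads in the series, 997 of them annotated and the rest predicted by the submitters. They hold 21662547 of 62878432 counted reads, in 4455 distinct read sequences.

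The libraries hold small RNAs of 15 to 35 nt from retina of db/db mice on a KsJ background, a strain whose leptin receptor does not function and which develops obesity and diabetes. There were 6 libraries from mice given Keluoxin, a Chinese herbal capsule used in diabetic kidney disease, and 6 libraries that the labels call model, taken as db/db mice without it. The source label names the retina, while the protocol for RNA extraction mentions a pellet of exosomes. Both groups carry the db/db genotype. No non-diabetic mice were analysed here. The labels give no age, dose or duration, and do not state whether each library is 1 animal. The p-values therefore rest on the variation among libraries, part of which may be technical.

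The 3 miRNAs are cut from 1 primary transcript that is made mainly in sensory cells, among them the rod and cone photoreceptors of the retina and the hair cells of the ear. In mice, deletion of the cluster disturbs the maturation and synapses of photoreceptors and leads to retinal degeneration, and the level of the cluster in the mouse retina follows light. A miRNA is guided to its target mRNAs mainly by its seed, bases 2 to 8 from its 5′ end, and a change of start by 1 base therefore gives another seed. Seed mutations of miR-96 cause hearing loss in mice and people.

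The mature 5p sequences show how alike the members are at the end that selects targets. They are printed from RefSeq with the seed in capitals, and the line after them is the form of miR-183-5p that starts 1 base later, described below.
miR-183-5p: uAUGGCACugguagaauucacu
miR-96-5p: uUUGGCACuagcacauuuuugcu
miR-182-5p: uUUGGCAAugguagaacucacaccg
miR-183-5p from the second start: aUGGCACUgguagaauucacu

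Counted from 1 at the 5′ end, the seed of miR-96-5p differs from that of miR-183-5p by A2U, and that of miR-182-5p differs from miR-96-5p by C8A. Between miR-183-5p and miR-182-5p the seeds differ by A2U and C8A. Over the whole sequence the order of likeness is another one. miR-183-5p and miR-182-5p share 18 of 22 bases position by position, miR-183-5p and miR-96-5p share 13 of 22, and miR-96-5p and miR-182-5p share 12 of 23. Of 1679 mature mouse miRNA names in the RefSeq table, miR-1271-5p has the seed of miR-96-5p, and no other name has that of miR-183-5p or miR-182-5p. The seed of the second start of miR-183-5p is shared by 0 of these names.

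The hairpins, with the annotated mature arms in capitals, show where the rarer 3p arms lie. Each equals the precursor in the deposited tables.
mir-183: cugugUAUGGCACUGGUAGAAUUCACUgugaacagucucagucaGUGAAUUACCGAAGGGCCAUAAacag
mir-96: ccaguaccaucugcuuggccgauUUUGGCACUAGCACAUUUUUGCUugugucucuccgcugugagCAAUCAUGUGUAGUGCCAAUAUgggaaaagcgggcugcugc
mir-182: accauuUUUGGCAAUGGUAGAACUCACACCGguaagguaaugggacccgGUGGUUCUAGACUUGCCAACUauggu

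In the GRCm38.p6 build, all 3 lie on chromosome 6, minus strand. mir-183 spans 30169668 to 30169737, mir-96 at 30169446 to 30169551 and mir-182 at 30165918 to 30165992. In the direction of transcription mir-183 comes first, mir-96 follows after 116 bases and mir-182 after a further 3453 bases. None of them overlaps an exon or intron of another gene in GENCODE M21. The nearest annotated genes are the protein-coding gene Nrf1 on one side and the long non-coding RNA Rncr4 on the other, both on the plus strand.

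Counted reads ranged from 1933375 in Keluoxin replicate 5 to 7892147 in model replicate 3. Reads on annotated precursors made up 91.2% to 95.1% of them in Keluoxin and 92.0% to 96.9% in model libraries, and reads of 15 to 17 nt made up 2.31% to 5.15% and 1.96% to 4.28%. 2 libraries stand apart. Levels are given as CPM, the reads of an arm relative to all reads of its library after scaling between libraries. Keluoxin replicate 4 held 9981 CPM of miR-184-3p, a miRNA of cornea and lens, against 69.8 to 179 CPM in the other Keluoxin libraries and 62.1 to 386 CPM in model libraries, and 1691 CPM of the muscle miRNA miR-1a-3p against 247 to 382 and 272 to 395 CPM. Model replicate 1 lay with the Keluoxin libraries on the first principal component of log2 CPM, which held 52.4% of the variance. Results whose call changed without either library are given below also without both, a choice made after the data were seen.

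In the Keluoxin retina miR-182-5p, the most abundant member in the model retina, was lower, together with the 3p arms of miR-183 and miR-96, while the difference in miR-96-5p pointed the other way and missed the threshold. By edgeR's quasi-likelihood test, with Benjamini-Hochberg adjustment over 812 arms, 3 of the 6 arms of the cluster passed an adjusted p of 0.05, all of them lower. Of all arms tested, 17.4% passed, 9.24% higher and 8.13% lower. The groups did not overlap for 1 member, miR-182-5p, which was also so for 7.76% of all arms. In a bulk sample of retina, fewer photoreceptors and less of a miRNA in each photoreceptor cannot be told apart. The tables hold small RNAs only, so no photoreceptor mRNA was at hand to check the cell type, and the high rank of the cluster itself is the sole marker of photoreceptors here.

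miR-182-5p had the highest mean level of all arms over the 12 libraries, but in Keluoxin libraries its mean was below that of miR-183-5p. It stood at 70613, 127930.5 and 145448 CPM as the lowest, median and highest value in Keluoxin, against 171497, 180164 and 201868 CPM in model libraries. Every Keluoxin library lay below every model library, and the lowest of them was replicate 4. The mean fell to 120051 ± 28306 CPM in Keluoxin, against 183827 ± 12013 CPM in model (SD, n = 6 each; log2 fold change -0.61, SE 0.15, edgeR adjusted p = 0.0205). Without Keluoxin replicate 4 and model replicate 1, the log2 fold change was -0.62, with an adjusted p of 0.00219.

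miR-183-5p ranked second of all arms over the 12 libraries. Its lowest, median and highest levels were 76642, 142565 and 178183 CPM in Keluoxin and 136931, 161709 and 171422 CPM in model libraries. The Keluoxin libraries spread on both sides of the model range, 3 below it and 2 above it. The means, 138212 ± 39379 CPM in Keluoxin and 158326 ± 12171 CPM in model (SD, n = 6 each), did not differ past the threshold (log2 fold change -0.20, SE 0.18, edgeR adjusted p = 0.421).

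miR-96-5p had rank 4 of all arms, after miR-9-5p, a miRNA of neurons and their progenitors. It stood at 40352, 54181 and 55375 CPM as the lowest, median and highest Keluoxin value, and at 36724, 44024 and 46437 CPM in model libraries. In Keluoxin, 5 libraries lay above the whole model range, and replicate 4 lay within it. The means were 52134 ± 5831 CPM in Keluoxin and 42965 ± 3605 CPM in model (SD, n = 6 each; log2 fold change 0.28, SE 0.09, edgeR adjusted p = 0.0543). The arm passed without Keluoxin replicate 4 (0.34, adjusted p = 0.00836), without model replicate 1 (0.30, adjusted p = 0.0403), and without both (0.26, adjusted p = 0.0348).

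The 3p arms, which are mostly degraded once the 5p strand has entered Argonaute, were far rarer. miR-183-3p ranged over 183.4, 241 and 297 CPM (lowest, median, highest) in Keluoxin and 292, 407 and 456 CPM in model libraries. All Keluoxin libraries except replicate 4 lay below the model range. Its mean fell to 237 ± 41 CPM in Keluoxin, against 394 ± 56 CPM in model (SD, n = 6 each; log2 fold change -0.73, SE 0.14, edgeR adjusted p = 0.00779), and without Keluoxin replicate 4 and model replicate 1 the log2 fold change was -0.97 (adjusted p = 0.00101).

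miR-96-3p was the rarest arm, with 27 to 190 reads in Keluoxin and 69 to 353 in model libraries. It ranged over 14.2, 19.7 and 28.1 CPM in Keluoxin and 16.3, 38.9 and 47.1 CPM in model libraries, where replicate 1 held the lowest value. The log2 fold change was -0.78 (SE 0.25, edgeR adjusted p = 0.0493), near the threshold: 10 of the 12 fits that omit a single library did not call it, with log2 fold changes of -0.92 to -0.69 over the 12. It passed without model replicate 1 (-0.92, adjusted p = 0.00481) and without Keluoxin replicate 4 and model replicate 1 (-1.09, adjusted p = 0.00446). miR-182-3p ranged over 239.8, 306 and 422 CPM in Keluoxin and 292, 379 and 483 CPM in model libraries, and did not pass (log2 fold change -0.32, SE 0.17, edgeR adjusted p = 0.188). The difference turned to 0.17 when reads of 18 to 26 nt alone were counted (edgeR adjusted p = 0.473).

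**Figure D1:**
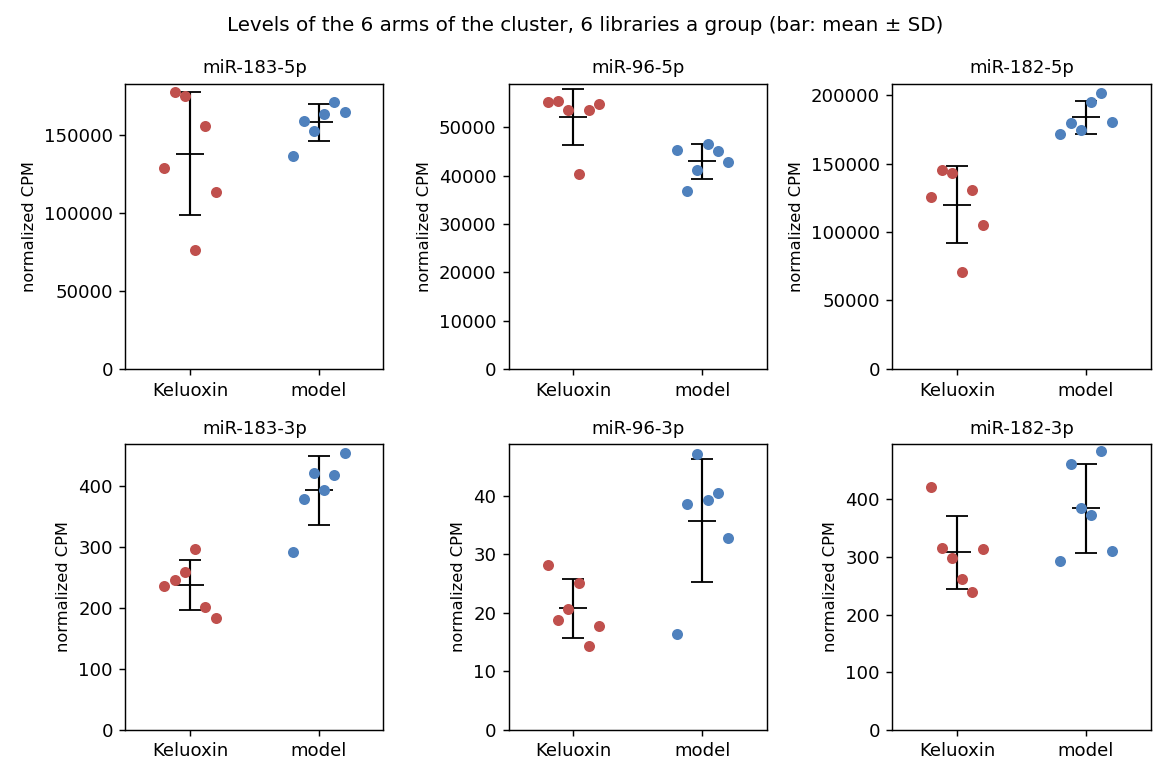
Normalized CPM of the 6 arms of the cluster, 1 point a library, Keluoxin left and model right, with the mean ± SD of 6 libraries. miR-182-5p lies lower in all 6 Keluoxin libraries than in any model library, while 5 Keluoxin libraries lie above all model libraries for miR-96-5p; the lowest Keluoxin point of each 5p arm is replicate 4.

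The cluster as a whole held a smaller share of the reads in Keluoxin. Its share of all counted reads was 24.5%, 33.5% and 36.2% (lowest, median, highest) in Keluoxin, against 35.0%, 36.4% and 37.5% in model libraries. In Keluoxin, 4 libraries lay below the model range, and replicate 4 lay far below the rest. The means of 32.5% ± 4.2 in Keluoxin and 36.2% ± 0.9 in model (SD, n = 6 each) differed by an exact two-sided permutation test over 924 assignments (difference -3.66 percentage points, p = 0.0195, adjusted p = 0.0244 over 5 measures). Without Keluoxin replicate 4 and model replicate 1 the difference was -2.03 points (adjusted p = 0.0694), and without Keluoxin replicate 4 alone -2.05 points (adjusted p = 0.0433). It missed the threshold in 4 of the 12 permutation tests that omit a single library (highest adjusted p = 0.0595). Of the reads on annotated precursors, the cluster held 35.1% ± 4.1 in Keluoxin and 38.2% ± 1.2 in model (SD, n = 6 each), with an adjusted p of 0.0411 by the same exact permutation test. Without Keluoxin replicate 4 this difference did not pass (-1.48 points, adjusted p = 0.0801), nor without model replicate 1 as well (-1.20 points, adjusted p = 0.151). It did not pass in 8 of the 12 permutation tests that omit a single library (highest adjusted p = 0.113).

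The balance between the 3 members differed more clearly than their sum, and it needs no scaling of the libraries. Adapters join some sequences more readily than others, so these are ratios of reads, not of molecules. For each read of miR-183-5p there were 0.816, 0.879 and 0.970 reads of miR-182-5p (lowest, median, highest) in Keluoxin, and 1.09, 1.16 and 1.25 in model libraries. miR-183-5p was thus the more frequent of the pair in all 6 Keluoxin libraries, and miR-182-5p in all 6 model libraries. On the log2 scale the ratio was -0.19 ± 0.11 in Keluoxin and 0.22 ± 0.07 in model (SD, n = 6 each; p = 0.00216 by the exact permutation test, the smallest that 924 assignments can give, adjusted p = 0.00541).

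The widest gap was between miR-182-5p and miR-96-5p, the pair whose seeds differ by C8A. There were 1.75, 2.35 and 2.68 reads of miR-182-5p for each read of miR-96-5p in Keluoxin (lowest, median, highest), against 3.78, 4.22 and 4.89 in model libraries. The groups did not overlap, and the log2 ratio was 1.17 ± 0.25 in Keluoxin and 2.10 ± 0.12 in model (SD, n = 6 each), with an adjusted p of 0.00541 by the exact permutation test. How often pairs of arms outside the cluster separate in this way was not tested. Model replicate 1, although it lay with the Keluoxin libraries on the first principal component, had the highest ratio of miR-182-5p to miR-183-5p of all 12 libraries, and its ratio of miR-182-5p to miR-96-5p, 3.78, was above that of every Keluoxin library.

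For miR-96-5p against miR-183-5p the groups overlapped. The ratio was 0.305, 0.385 and 0.527 in Keluoxin and 0.230, 0.266 and 0.332 in model libraries (lowest, median, highest), and 4 Keluoxin libraries lay above all model libraries. The log2 ratios of -1.36 ± 0.34 in Keluoxin and -1.88 ± 0.17 in model (SD, n = 6 each) differed by the exact permutation test (adjusted p = 0.0108). Without Keluoxin replicate 4 and model replicate 1, the 3 log2 differences were -0.40 for miR-182-5p over miR-183-5p, -0.89 for miR-182-5p over miR-96-5p and 0.50 for miR-96-5p over miR-183-5p, each with an adjusted p of 0.0132 (exact permutation test). Any 2 of the 3 ratios determine the remaining 1, so they are not independent results.

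**Figure D2:**
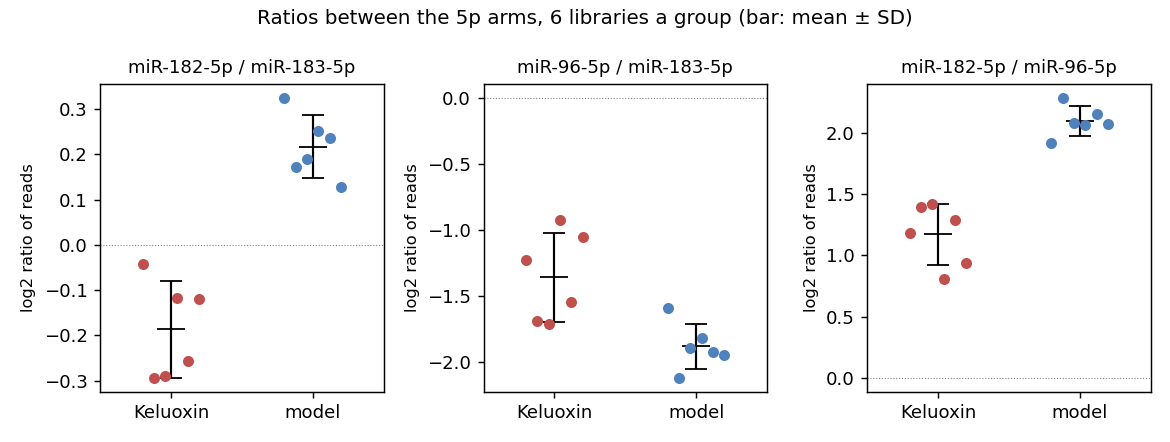
Log2 ratios of reads between the 5p arms, 1 point a library, Keluoxin left and model right, with the mean ± SD of 6 libraries; the dotted line marks equal reads. The ratio of miR-182-5p to miR-183-5p lies below 0 in all 6 Keluoxin and above 0 in all 6 model libraries, and the ratio of miR-182-5p to miR-96-5p does not overlap between the groups.

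Put as a share of the 5p reads of the cluster, miR-182 held 38.6% ± 1.0 in Keluoxin and 47.7% ± 0.7 in model, miR-96 held 17.3% ± 3.0 and 11.2% ± 1.0, and miR-183 held 44.0% ± 2.9 and 41.1% ± 1.4 (SD, n = 6 each). These 3 shares sum to the whole, so they are 1 finding in another form. The share of miR-182 varied least, between 37.6% and 40.5% in Keluoxin and between 46.5% and 48.5% in model libraries.

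The 2 arms of a precursor leave Dicer as a duplex, and their ratio shows how unequally they are kept. There were 1607 to 3759 reads of miR-96-5p for each read of miR-96-3p in Keluoxin, against 874 to 2787 in model libraries, with medians of 2772 and 1149. 5 of the 6 model libraries lay at 1309 or below, and replicate 1 lay within the Keluoxin range at 2787. The log2 ratio was 1.02 higher in Keluoxin (SE 0.29, limma adjusted p = 0.0376 over 147 precursors, of which 15.0% passed). It did not pass in 9 of the 12 fits that omit a single library, in which the log2 difference was 0.91 to 1.25 over the 12. Without Keluoxin replicate 4 and model replicate 1 it was 1.38 and passed (adjusted p = 0.00165).

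For miR-183 the 5p to 3p ratio was 547 to 773 in the Keluoxin libraries other than replicate 4, which held 258, and 363 to 469 in model libraries. The log2 difference of 0.48 (SE 0.24) did not pass (limma adjusted p = 0.187), and without Keluoxin replicate 4 it was 0.71 and passed (adjusted p = 0.00494), as it did without model replicate 1 as well (0.75, adjusted p = 0.00436). For miR-182 the ratio was 270 to 544 in Keluoxin and 389 to 587 in model libraries and did not pass (log2 difference -0.34, SE 0.21, limma adjusted p = 0.268). Reads of 15 to 17 nt, counted here, made up 2.57% to 9.32% of miR-182-3p in Keluoxin and 5.17% to 55.8% in model libraries. The ratio without such short reads was not tested.

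The start of the reads sets the seed, and it was nearly fixed in 2 of the 5p arms. miR-96-5p started at its annotated base in 99.8% to 99.9% of reads in Keluoxin and 99.8% to 99.9% in model libraries, and miR-182-5p in 99.5% to 99.8% and 99.5% to 99.8%. miR-183-5p had a second start 1 base further in, the form with the seed UGGCACU printed above. This form made up 21.4%, 22.5% and 28.8% of the reads (lowest, median, highest) in Keluoxin and 22.2%, 22.9% and 23.2% in model libraries. The highest value was that of Keluoxin replicate 4. The difference did not pass (log2 odds difference 0.04, SE 0.11, limma adjusted p = 0.919 over 380 arms, of which 3.95% passed for their start; the groups did not overlap for 3.16%).

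The 2 forms of miR-183-5p also differed in where they end. Among reads with no difference from the precursor, those starting at the second base went on past the annotated end by 1 base in 10.3% to 12.5% of Keluoxin and 14.9% to 22.7% of model reads. For reads starting at the annotated base this was 5.17% to 7.35% in Keluoxin and 7.88% to 13.6% in model libraries. The later start thus went with a later end in both groups; these are descriptions with no test.

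The 3p arms were less sharply cut. miR-183-3p started 1 base after its annotated start in 96.0% to 97.6% of Keluoxin and 96.2% to 97.1% of model reads, so its usual seed in this retina is not the one of the RefSeq entry. miR-96-3p started at its annotated base in 62.1% to 81.1% of Keluoxin and 57.0% to 65.2% of model reads; it was too rare for the tests of read shape.

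miR-182-3p was split between 2 starts, the annotated one and the base after it. The annotated start held 22.6%, 35.9% and 40.8% of the reads (lowest, median, highest) in Keluoxin and 41.3%, 51.8% and 62.6% in model libraries. The groups did not overlap, and the odds of starting elsewhere than at the most frequent start were lower in Keluoxin (log2 odds difference -1.31, SE 0.24, limma adjusted p = 0.0160). The forms with these starts and the annotated end are printed here in DNA letters, as read, to show the 2 starts.
miR-182-3p read from the annotated start: gtggttctagacttgccaact
miR-182-3p read from the next base: tggttctagacttgccaact

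That difference moved with very short reads. Reads of 15 to 17 nt made up 2.57% to 9.32% of miR-182-3p in Keluoxin, and in model libraries 5.17% and 5.73% in replicates 1 and 4 but 27.9%, 36.01%, 47.8% and 55.8% in replicates 3, 6, 2 and 5. With reads of 18 to 26 nt alone, an alternative chosen after the data were seen, the log2 odds difference was -0.31 (SE 0.50) and did not pass (limma adjusted p = 0.777). Among reads of 18 nt or more the annotated start held 16.7% to 39.96% in Keluoxin and 16.96% to 55.0% in model libraries, so that the groups overlapped.

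**Figure D3:**
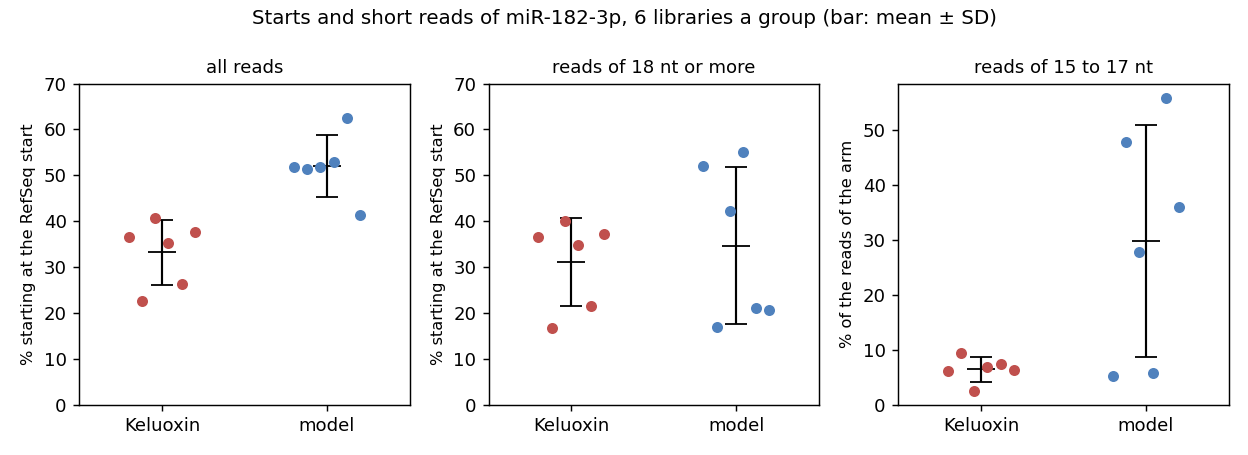
Share of miR-182-3p reads that begin at the annotated start, in all reads (left) and in reads of 18 nt or more (middle), and share of its reads that are 15 to 17 nt long (right), 1 point a library, Keluoxin left and model right, with the mean ± SD. The groups are apart in all reads and overlap in the longer reads, and short reads reach 27.9% to 55.8% in 4 of the 6 model libraries.

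More reads of miR-183-5p ended at the annotated base in Keluoxin, among reads with no difference from the precursor. Of these, 80.6%, 82.3% and 83.2% (lowest, median, highest) ended at the annotated base in Keluoxin, against 70.4%, 75.4% and 78.5% in model libraries. The groups did not overlap. Ends 1 base further on made up 6.65% to 8.52% in Keluoxin and 9.47% to 15.7% in model libraries, and ends 1 base earlier 3.39% to 4.37% and 4.90% to 6.09%, again with no overlap. The shares of ends were not tested, and how often other arms separate in this way was not computed.

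For miR-96-5p the groups overlapped at the annotated end, which held 57.8% to 66.2% of the reads with no difference in Keluoxin and 49.6% to 60.0% in model libraries. Ends 2 bases earlier held 10.7% to 18.1% and 18.1% to 23.3%, below the model range in 5 Keluoxin libraries, while ends 3 bases earlier held 3.02% to 5.45% and 2.77% to 3.35%, above it in 5. Over all reads, those with a difference included, reads of 23 nt, the annotated length, made up 54.0%, 56.6% and 64.0% in Keluoxin and 40.5%, 46.6% and 51.5% in model libraries (lowest, median, highest). Reads of 22 nt made up 24.04% to 29.2% in Keluoxin and 30.1% to 37.9% in model libraries. Neither length overlapped between the groups. Shares of ends and of single lengths were not tested, and how often other arms separate in this way was not computed. The mean read length of miR-96-5p was 22.4 ± 0.1 nt in Keluoxin and 22.2 ± 0.1 nt in model (SD, n = 6 each), a difference of 0.14 nt (SE 0.04, limma adjusted p = 0.0628). It passed without Keluoxin replicate 4 (0.16 nt, adjusted p = 0.0217) and without model replicate 1 as well (0.17 nt, adjusted p = 0.0261). No arm of the cluster passed in mean length with all libraries; of 380 arms, 7.63% did.

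miR-182-5p was ragged at its 3′ end in both groups. Its most frequent end, 3 bases before the annotated one, held 24.6% to 28.1% in Keluoxin and 24.7% to 29.04% in model libraries, and ends 1 base before the annotated one 16.1% to 25.8% and 18.7% to 22.6%. The groups overlapped at both ends, and the mean length differed by 0.01 nt (SE 0.10, limma adjusted p = 0.950).

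**Figure D4:**
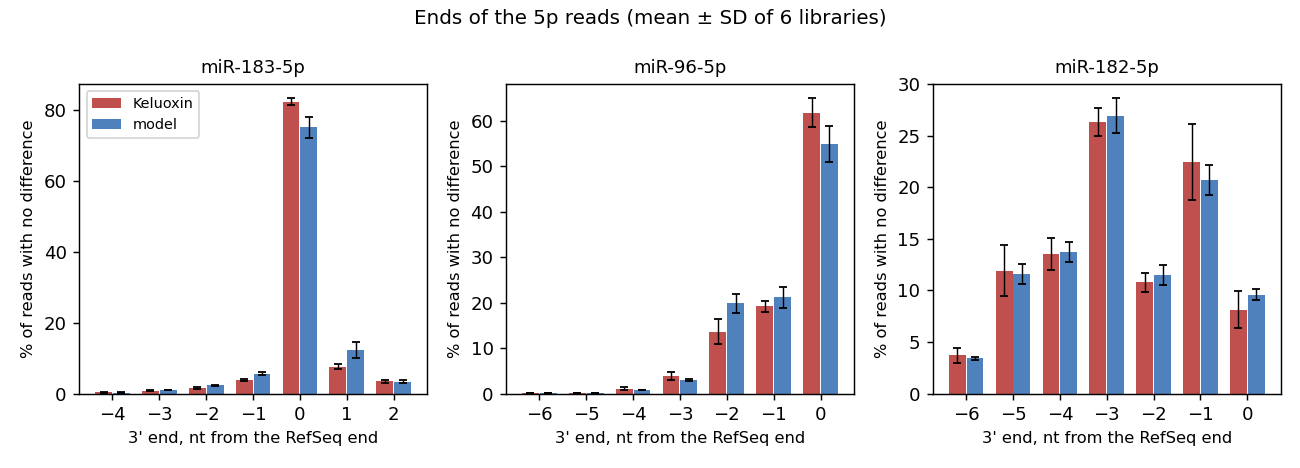
Where the 5p reads with no difference from the precursor end, in nt from the RefSeq 3′ end (0, horizontal axis), as a share of such reads (vertical axis, a scale of its own in each panel); bars are means and lines SD of 6 libraries, Keluoxin left of model in each pair. More reads of miR-183-5p end at 0 in Keluoxin than in model libraries, fewer reads of miR-96-5p end at -2, and the bars of miR-182-5p differ little.

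The 5p arms of all 3 members held more reads with a base that differs from the precursor in Keluoxin, as did most arms of the series. At most 1 difference per read is allowed in these tables. For miR-183-5p such reads made up 37.1%, 43.7% and 46.9% in Keluoxin and 32.1%, 33.3% and 38.2% in model libraries (lowest, median, highest; log2 odds difference 0.54, SE 0.11, limma adjusted p = 0.00108). 4 of the 5 arms tested passed, all higher, and so did 64.7% of 380 arms, 60.3% higher. The log2 odds difference was 0.39 for miR-182-5p (adjusted p = 0.00700), 0.65 for miR-182-3p (adjusted p = 0.00156) and 0.26 for miR-96-5p (adjusted p = 0.0249). That of miR-183-3p, 0.26, did not pass (adjusted p = 0.0528), but did without Keluoxin replicate 4 and model replicate 1 (0.34, adjusted p = 0.00424). The call of miR-96-5p was lost in 4 of the 12 fits that omit a single library (highest limma adjusted p = 0.0578). In these fits 3 to 5 arms of the cluster passed. The median over all arms was 0.42, so the values of the cluster lie among those of other arms. Outside the cluster 44.9% to 51.0% of reads in Keluoxin and 39.8% to 44.1% in model libraries held a difference.

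Most of these differences were at the last base, where miRNAs can gain bases that the gene does not encode. The last base differed in 24.3%, 33.4% and 35.8% of miR-183-5p reads (lowest, median, highest) in Keluoxin and 24.2%, 25.2% and 28.9% in model libraries. Keluoxin replicate 4 lay within the model range and the other 5 above it (log2 odds difference 0.46, SE 0.14, limma adjusted p = 0.0310). 3 of the 5 arms passed, miR-183-5p, miR-183-3p (0.30, adjusted p = 0.0457) and miR-182-3p (0.51, adjusted p = 0.0419), and of 380 arms 26.1% passed, 24.5% higher. The number of cluster arms past the threshold was 0 in 9 of the 12 fits that omit a single library, and 4 without Keluoxin replicate 4. Without Keluoxin replicate 4 and model replicate 1 the difference was 0.59 for miR-183-5p (adjusted p = 0.00124), 0.36 for miR-183-3p (adjusted p = 0.00884), 0.67 for miR-182-3p (adjusted p = 0.00215) and 0.37 for miR-182-5p (adjusted p = 0.0167). Outside the cluster the share was 24.9% to 33.8% in Keluoxin and 26.4% to 28.8% in model libraries.

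**Figure D5:**
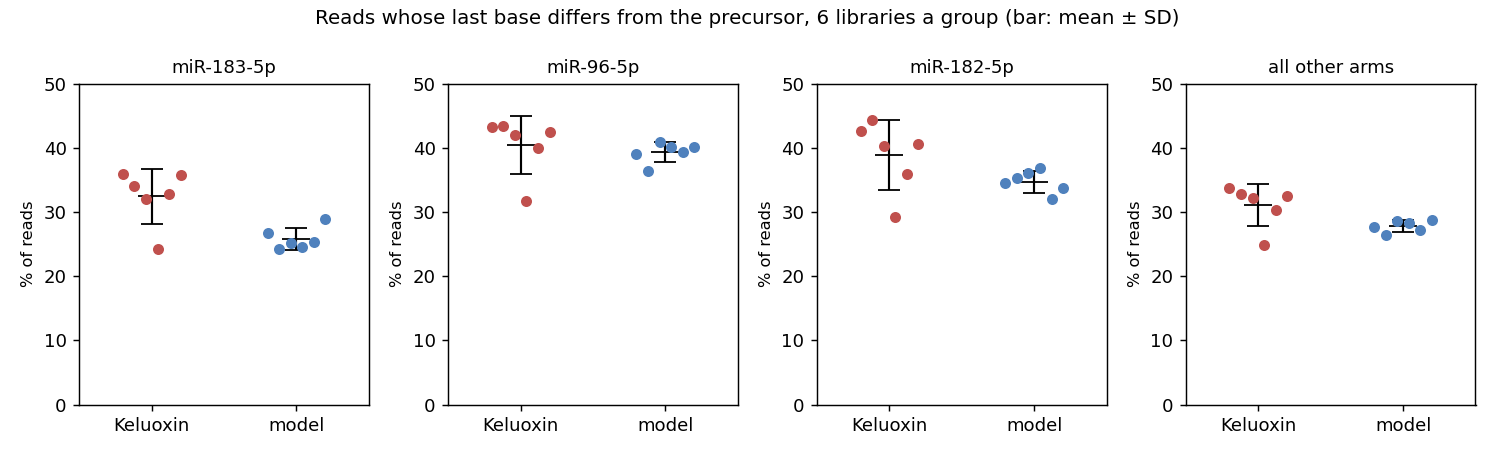
Share of reads whose last base differs from the precursor for the 3 5p arms and for all arms outside the cluster, 1 point a library, Keluoxin left and model right, with the mean ± SD. In each panel 4 or 5 Keluoxin libraries lie above all model libraries and 1, replicate 4, lies lowest among the Keluoxin libraries.

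The kind of base at such last positions differed too. Among differing last bases of miR-183-5p, A made up 30.2% to 34.0% in Keluoxin and 37.7% to 43.5% in model libraries, G 21.2% to 32.7% and 14.4% to 19.5%, and U 4.07% to 5.49% and 7.96% to 11.2%. The groups did not overlap for these 3 bases. They overlapped for C, which made up 31.1% to 43.7% in Keluoxin and 28.9% to 37.4% in model libraries. For miR-96-5p, A made up 38.4% to 41.6% in Keluoxin and 47.8% to 53.2% in model libraries. For miR-182-5p, U was the most frequent, with 49.3% to 53.1% in Keluoxin and 54.6% to 62.4% in model libraries, again with no overlap. Outside the cluster A likewise made up 29.8% to 33.1% in Keluoxin and 39.3% to 44.1% in model libraries, and the groups overlapped for U, with 24.2% to 31.4% and 27.0% to 31.5%. These shares were not tested.

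Single read sequences show which forms carry these shifts. The 4 sequences below are, with the shorter form of miR-182-3p printed above, the named forms whose share of their arm passed the test. They are in DNA letters as read, and a capital marks a base that differs from the precursor.
miR-183-5p ending 1 base further: tatggcactggtagaattcactg
miR-183-5p with U22C: tatggcactggtagaattcacC
miR-96-5p ending 2 bases earlier: tttggcactagcacatttttg
miR-96-5p with C22A: tttggcactagcacatttttgA

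The form of miR-183-5p that runs 1 base further held 2.31%, 2.68% and 3.25% of the arm (lowest, median, highest) in Keluoxin and 3.97%, 5.21% and 6.46% in model libraries, with no overlap (log2 odds difference -0.96, SE 0.17, limma adjusted p = 0.00154). The form with U22C held 7.12% to 11.48% in Keluoxin and 5.45% to 7.72% in model libraries (0.66, SE 0.17, adjusted p = 0.0130). In miR-96-5p the form with C22A held 5.69% to 7.47% in Keluoxin and 9.26% to 12.5% in model libraries (-0.84, SE 0.15, adjusted p = 0.00176). Its 21-nt form held 5.17% to 8.33% and 9.42% to 11.98% (-0.75, SE 0.16, adjusted p = 0.00433). Both were lower in every Keluoxin library than in any model library. The shorter form of miR-182-3p held 24.9% to 34.7% in Keluoxin and 18.1% to 22.9% in model libraries (0.69, SE 0.16, adjusted p = 0.00626). As a share of the miR-182-3p reads of 18 to 26 nt, an alternative chosen after the data were seen, it held 26.6% to 37.5% in Keluoxin and 22.5% to 43.9% in model libraries and did not pass (0.05, SE 0.27, adjusted p = 0.906).

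The full annotated form was the most frequent read of miR-183-5p and miR-96-5p and did not pass in either. It held 35.4% to 39.5% of miR-183-5p in Keluoxin and 35.1% to 41.7% in model libraries, and 26.2% to 32.4% and 25.6% to 33.5% of miR-96-5p. None of the 5 most frequent reads of miR-182-5p passed; the first of them, with 12.2% to 16.2% in Keluoxin and 14.0% to 16.6% in model libraries, is 3 bases shorter than the annotated form. Of 1486 read sequences of the cluster tested, 223 were higher and 179 lower, or 27.1%, against 31.5% of 12884 over all arms, 20.7% higher and 10.8% lower; the groups did not overlap for 13.4% of the latter. Reads of 1 arm share their total, so these counts are not of independent sequences.

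Differences inside the 5p arms, which would include edited bases, were rare. In miR-183-5p, A15G held 0.211% to 0.349% in Keluoxin and 0.262% to 0.299% in model libraries, and U18C 0.192% to 0.354% and 0.200% to 0.228%. In the seed of miR-96-5p, A7G held 0.130% to 0.238% in Keluoxin and 0.173% to 0.217% in model libraries. The groups overlapped for all 3. A difference anywhere in bases 2 to 8 was found in 1.13% to 2.07% of miR-183-5p reads in Keluoxin and 1.58% to 1.86% in model libraries. Sequencing errors are counted with these.

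Across the 12 libraries, the annotated arms of at least 100 CPM whose log2 CPM ran most like that of miR-182-5p were miR-25-3p, miR-129-5p and miR-100-5p (Pearson r = 0.93, 0.92 and 0.89, of 179 candidates). For miR-183-5p they were let-7j-5p, miR-382-5p and miR-182-5p (r = 0.87, 0.86 and 0.86), and for miR-96-5p miR-344-3p, miR-1843a-5p and miR-30b-5p (r = 0.87, 0.70 and 0.69). miR-96-5p had an r of 0.16 with miR-183-5p and of -0.21 with miR-182-5p, so the members of the cluster were not its nearest. These values describe 12 libraries of 2 groups that share scaling and depth, and carry no p.

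The other miRNAs of retinal neurons set the level of the cluster in context. Of 13 such arms, 1 was higher, miR-181c-5p (log2 fold change 0.44, edgeR adjusted p = 0.0166), and 1 lower, miR-129-5p (-0.40, adjusted p = 0.0330); their median log2 fold change was -0.02, and that of all arms 0.03. The most abundant of them, miR-9-5p, stood at 34604 to 72103 CPM in Keluoxin and 66472 to 74436 CPM in model libraries, lowest in Keluoxin replicate 4 like the 5p arms of the cluster, and did not pass (-0.24, edgeR adjusted p = 0.235). miR-124-3p did not pass either (-0.34, edgeR adjusted p = 0.128). miR-204-5p and miR-211-5p, which in mouse retina follow light as the cluster does, had log2 fold changes of 0.05 and 0.09 (edgeR adjusted p = 0.662 and 0.574).

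Some markers of other tissues differed between the groups too, either in most Keluoxin libraries or in replicate 4 alone. The summed level of 6 epithelial, corneal and lens arms tested, of 8 named, was 200 to 10156 CPM in Keluoxin and 292 to 717 CPM in model libraries, with the highest sum in Keluoxin replicate 4; miR-203-3p alone passed (-0.83, edgeR adjusted p = 0.0158), and miR-200b-3p was at 0 in Keluoxin replicate 1. For 4 muscle arms the sums were 285 to 1905 CPM in Keluoxin and 298 to 426 CPM in model libraries, highest in Keluoxin replicate 4, and miR-133b-3p, above the model range in 5 Keluoxin libraries, passed (log2 fold change 1.87, edgeR adjusted p = 0.0476). For 2 of 4 erythroid arms, with miR-451a-5p passing and above the model range in 4 Keluoxin libraries (log2 fold change 3.04, edgeR adjusted p = 0.0151), they were 51.5 to 716 CPM and 53.1 to 72.2 CPM. The endothelial miR-126a-3p was lower in all 6 Keluoxin libraries than in any model library (-0.64, edgeR adjusted p = 0.00466). The other endothelial arm, miR-126a-5p, pointed the other way and did not pass (0.27, edgeR adjusted p = 0.221). Sums of 2 mural arms were 3212 to 6890 CPM in Keluoxin and 2465 to 4140 CPM in model libraries, and those of 2 leukocyte arms 68.3 to 84.5 and 68.4 to 83.8 CPM. No mural or leukocyte arm passed. The glial miR-338-3p stood at 53.2 to 73.4 CPM in Keluoxin and 39.995 to 53.4 CPM in model libraries. It did not pass (log2 fold change 0.39, edgeR adjusted p = 0.0653). The liver miR-122-5p, which passed (log2 fold change 2.56, edgeR adjusted p = 0.0208), stood at 2.38 to 41.1 and 1.18 to 4.85 CPM. The glial and the liver arm were each above the model range in 5 Keluoxin libraries. The part of other tissues in the levels of the cluster was not tested.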

How the data were processed

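Per the labels' protocols, a NEBNext small RNA kit was used on 1 µg of total RNA. Novoalign, Bowtie, cutadapt and bcl2fastq appear in the submitters' processing notes without version or role; genome build and miRBase release: not given in the sources used here. The deposited tables pair every read sequence with its count and its alignment to precursors, per the file headers. These counts are not normalized, cover sequences of 15 to 51 nt seen in 2 or more reads, and were divided by the authors by the number of precursors matched; the undivided number in the tag name was used here. Of reads on the 3 precursors, 0.43%, 0.08% and 0.05% for mir-182, mir-183 and mir-96 also lay on another precursor and were counted whole for the member; 87 reads on both mir-183 and mir-182 were shared equally. Hairpins and mature arms were matched by name to RefSeq (GRCm38.p6), all of them with a match.

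Levels were tested with edgeR 4.0.16 (TMM, its filter on low counts, quasi-likelihood) in R 4.3.3. Read shape was tested with limma 3.58.1 on mean lengths and on log2 ratios with a pseudocount of 0.5: over arms that reached 50 reads in all libraries, over precursors that reached 10 reads on both arms in 6 libraries, and over read sequences that reached 10 reads in 6 libraries. All p-values were adjusted by Benjamini-Hochberg over the whole table, with a threshold of 0.05, and those of the exact permutation tests over 5 measures. The edgeR and limma steps were tested on simulated data. Alternatives were RLE, upper quartile and total-read scaling, no filter, DESeq2 1.42.0, other read and precursor sets, another pseudocount and minimum, each library left out, and a replicate block. SciPy 1.17.1, NumPy 2.4.6 and pandas 2.3.3 were used in Python 3.11.15. No 2 libraries of a group were copies (smallest chi-square per degree of freedom 70.5). Intervals for counting error are not given, since the spread between libraries is wider at these depths and reads without molecular identifiers are not independent molecules.

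The members, lists and tests were chosen with earlier results of these data known. Named are all 6 arms, the 5 most frequent reads of each 5p arm and 2 of each 3p arm, the 3 arms most like each 5p arm, and list members past the threshold or among the 3 most abundant; the rule also names every read sequence past the threshold, and as these were 402, only those among the most frequent are described.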

Additional observations from a re-analysis of the deposited data

Results flagged for a closer look

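In 13 of 86 sets of 6 values checked, the highest or lowest library lay farther from its nearest neighbour than Dixon's 95% limit allows. Chance alone gives about 1 in 20 for independent sets. These sets share libraries and reads and are not independent, so the 13 cannot be weighed against that rate. Of the 13, 9 were Keluoxin replicate 4. Its share of counted reads on the cluster was 24.5%, with the next at 32.0%, and its miR-96-5p level was 40352 CPM, with the next at 53485 CPM. Among Keluoxin libraries it held the fewest reads with a differing last base, 24.3% in miR-183-5p and 31.7% in miR-96-5p, and with any difference, 60.4% in miR-183-3p and 46.0% in miR-96-5p. Its miR-183-5p reads began at the annotated base in 71.0% and at the second start in 28.8%, with the next Keluoxin library at 23.5%, and its miR-182-5p reads averaged 22.0 nt. This library also held the most miR-184-3p and miR-1a-3p; the part of either in these values was not tested.

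In model libraries, replicate 1 had 2787 reads of miR-96-5p for each read of miR-96-3p, with the next at 1309. Replicate 6 had the longest miR-183-3p reads, 21.5 nt on average, and the most of them with a difference, 67.2%. Replicate 5 had the fewest miR-182-5p reads with a difference, 40.03%.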

How the results depend on the processing

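miR-182-5p (log2 fold change -0.87 to -0.46) and miR-183-3p (-0.99 to -0.52) stayed past the threshold under all 21 other settings tried for the level, leaving out each library included. With another scaling the median over all arms (log2) became -0.22 (upper quartile) or 0.22 (total reads), where miR-96-5p stood at 0.03 and 0.46, past the threshold with total reads, as also with exact reads, with reads of 18 to 26 nt and with annotated precursors only. miR-96-3p lost its call under 6 of the 9 alternatives other than leaving out a library. The count of cluster arms past the threshold ran from 2 to 4. Of all arms it ran from 72 of 821 (without model replicate 4) to 247 of 836 (without model replicate 1). DESeq2, with fold changes for 2148 arms, called 239, and annotated precursors alone gave 77 of 509.

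Leaving out 1 library gave 0 to 2 precursors of the cluster for the arm ratio. It gave 0 to 1 arms for length, 3 to 5 for a differing base and 0 to 4 for the last base. The share of all counted reads differed by -4.40 to -2.05 points and passed in 8 of 12 such tests. That of annotated reads differed by -3.73 to -1.48 points and passed in 4 of 12. Without Keluoxin 4 and model 1, the 2 shares differed by -2.03 and -1.20 points and no longer passed, 2 precursors passed for the arm ratio and 1 arm for length. With reads of 18 to 26 nt 1 arm passed for length and 0 for the start, and the shorter read of miR-182-3p lost its call; the other 4 described reads past the threshold stayed past it under each setting that gave a value (those with a differing last base give none among reads with no difference). With exact reads the share of annotated reads differed by -2.75 points and did not pass. The start difference of miR-182-3p was 1.15 in that setting, since its most frequent start is then the annotated one. Only read sequences with no difference enter that setting, and 16 of the cluster passed, against 402 of 1486 of all kinds in the main fit. In the main fit 107 of the 1486 had no difference, and of these 3 passed higher and 20 lower.

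Over all arms or precursors, leaving out 1 library gave 10 to 28 calls for the arm ratio (22 with all), 12 to 74 for length (29), 5 to 24 for the start (15) and 48 to 186 for the last base (99). With exact reads 4 arms passed for length. Only read sequences with no difference were then tested, and 440 passed, against 4060 of 12884 of all kinds in the main fit. With 4 times the minimum of reads, which fewer arms and sequences reach, 14 arms passed for length and 2349 read sequences. Without Keluoxin 4 and model 1, 229 arms passed for level, 82 for length and 192 for the last base, and with reads of 18 to 26 nt 44 for length.

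The replicate numbers were not taken to pair the libraries, since the labels tie them to no shared litter, batch or day and deviations of same-numbered libraries correlated by 0.04 to 0.24, not above 0.1 in every pair; 1 of 6 libraries correlated best with its own number. With the number as a replicate block, 0 precursors of the cluster passed for the arm ratio (13 of all) and 0 arms for the start (2 of all). The differences in share, -3.66 and -3.10 points, and in log2 ratio, -0.40, 0.52 and -0.93, keep their values but miss the threshold (adjusted p of 0.0521 to 0.125). For the ratios, which differed in the same direction in every same-numbered pair, swaps within pairs can give no smaller p-value. The calls of the miR-96 arm ratio (adjusted p = 0.0776), the miR-96-3p level (0.118), the miR-182-3p start (0.0633) and the miR-183-3p last base (0.0532) were lost.

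Depth limits miR-96-3p, with 27 to 353 reads a library.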
